A study of Mus musculus with 6 samples.

Results

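The transcripts described here were the 259 expressed noncoding RNA entries of a sequencing comparison between the mouse carotid body and adrenal medulla. They were chosen by expression level, among entries of the deposited table with a listed mRNA length and only RefSeq noncoding accessions (prefix NR_), as those with at least 5 RPKM in at least 3 of the 6 libraries. RPKM is a count of reads scaled to transcript length and to the reads of the library, here those summed over all listed entries. Of 23511 entries with a length, 2949 carried only noncoding accessions, and 259 of these reached the threshold. A further 4 entries at the threshold belong to imprinted loci and were left out by name. Because expression level chose the members, that they were expressed is no result. The 3 members closest above the threshold, by the lowest of their top 3 values, were C130046K22Rik (5.02 RPKM), 9230114K14Rik (5.09 RPKM) and Gm8801 (5.12 RPKM), and the closest below were Gm9159 (4.999 RPKM), Msx1as (4.98 RPKM) and A930001C03Rik (4.92 RPKM).

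Both tissues came from untreated adult mice of strain C57/BL6. The carotid body is a chemosensory organ at the fork of the carotid artery, and the adrenal medulla is the inner tissue of the adrenal gland, whose chromaffin cells release catecholamines. Each library was made from 1 pool, of 18 carotid bodies or of 10 adrenal medullas taken from 10 mice, and each tissue had 3 pools. Whole organs were used, so a difference between cell numbers and a difference in RNA per cell cannot be told apart. Depth was 13266225 to 16445925 reads per library, and the members together made up 1.15% to 1.62% of reads. Adrenal medulla pool 3 lacked reads of the Y-linked gene Eif2s3y (0 RPKM, against 12.1 to 31.7 RPKM in the other 5 libraries). The X-linked RNA Xist had 4.8 RPKM in that pool, against 0.176 to 0.992 RPKM in the other 5. Carotid body pool 2 was the lowest of its tissue in 45.6% of members, against 21.1% of coding entries at the same level. Markers of neighbouring cells differed between the tissues. All 10 markers of adrenal cortex were called in the adrenal medulla direction (summed level 13700 to 18000 RPKM, against 94.5 to 214 RPKM), and 7 of 8 smooth muscle and pericyte markers were higher in the carotid body (2540 to 3070 RPKM against 106 to 109 RPKM). All 8 fibroblast markers (2250 to 2960 RPKM against 68.1 to 179 RPKM), all 8 tested of 9 markers of Schwann cells and sustentacular glia (393 to 563 RPKM against 49.9 to 73.9 RPKM), 5 of 8 endothelial and 2 of 6 macrophage markers were also higher there. Of 8 markers of chromaffin and glomus cells, 6 were higher in the adrenal medulla and 1 in the carotid body. Adipocyte markers summed to 432 to 3510 RPKM in the carotid body and 229 to 2330 RPKM in the adrenal medulla. No marker of these lists was at 0 in every library, and their part in the differences below was not tested.

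Noncoding RNAs of a cell fall into groups with different work. Small nucleolar RNAs (snoRNAs) guide modification and cleavage of ribosomal RNA. Many, though not all, are cut from introns of host transcripts, whose spliced exons are what a table of this kind counts. MicroRNAs (miRNAs) pair through bases 2 to 8, the seed, with target mRNAs and are likewise cut from longer host transcripts. Long noncoding RNAs such as Neat1 organise nuclear bodies, transcripts opposite to a gene can act on that gene, and processed pseudogenes are copies of mRNAs inserted elsewhere in the genome. Whether the amplification kit named in the labels' protocols primed on the poly(A) tail, which most small RNAs lack, is not stated beyond its name.

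Sequences below are RefSeq records of build GRCm38.p6, written 5′ to 3′. The first set shows mature miRNAs of 3 called entries, the hosts Mir22hg and Dleu2 and the hairpin Mir3064, with the seed in capitals. Other called host and hairpin entries are described without sequence. The miR-22 arm lies at chr11:75463772-75463793 on the plus strand, within Mir22hg. The miR-3064 arms lie within Ddx5, at chr11:106782736-106782757 and chr11:106782695-106782716 on the minus strand. The miR-15a and miR-16 arms lie within Dleu2, at chr14:61632075-61632096 and chr14:61631936-61631957 on the minus strand, and share the seed AGCAGCA.
mmu-miR-22-3p: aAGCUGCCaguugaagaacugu
mmu-miR-3064-5p: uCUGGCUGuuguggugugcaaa
mmu-miR-3064-3p: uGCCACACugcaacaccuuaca
mmu-miR-15a-5p: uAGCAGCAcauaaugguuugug
mmu-miR-16-5p: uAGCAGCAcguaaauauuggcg

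The second set shows 2 hairpin members that share sequence with an mRNA, so that their reads cannot be assigned to the miRNA. The hairpins of Mir682 (chr13:75645046-75645141, plus strand) and Mir686 (chr14:54616677-54616785, minus strand) are printed with the longest run shared with a coding mRNA in capitals. The run covers 48 of 96 bases of Mir682, in the ribosomal protein mRNA Rpl37a, and 109 of 109 bases of Mir686, in the proteasome subunit mRNA Psmb5.
Mir682: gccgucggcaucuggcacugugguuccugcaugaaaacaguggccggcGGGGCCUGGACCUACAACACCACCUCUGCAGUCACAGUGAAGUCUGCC
Mir686: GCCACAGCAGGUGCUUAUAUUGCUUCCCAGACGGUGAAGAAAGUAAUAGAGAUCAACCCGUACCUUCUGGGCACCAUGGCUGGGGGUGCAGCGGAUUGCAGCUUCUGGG

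The third set shows the 5′ starts of 5 snoRNA hosts, 10 bases before and 30 bases after the annotated start. Capitals mark a run of at least 5 pyrimidines opening with C within 10 bases of the start, the arrangement of 5′ terminal oligopyrimidine mRNAs, which encode ribosomal proteins and translation factors. Such a run was present at 52.4% of 21 host starts (11 starts, of 10 of 18 genes), at 41.5% of 65 ribosomal protein starts and at 16.8% of all 32851 starts in the RefSeq table. The 5 starts shown were picked among those with the run. A second annotated start of Gas5 and the starts of the called hosts Snhg20 and Snhg15 lacked it. The coordinates are chr1:161035156-161035195 (Gas5, plus), chr2:26640215-26640254 (Snhg7, minus), chr3:123508307-123508346 (Snhg8, minus), chr17:24528241-24528280 (Rab26os, plus) and chr15:32244633-32244672 (Snhg18, minus).
Gas5: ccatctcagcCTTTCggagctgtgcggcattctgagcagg
Snhg7: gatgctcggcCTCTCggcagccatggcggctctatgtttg
Snhg8: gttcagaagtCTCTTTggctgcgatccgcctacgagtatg
Rab26os: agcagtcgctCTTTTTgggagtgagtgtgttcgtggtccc
Snhg18: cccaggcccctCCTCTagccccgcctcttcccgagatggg

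The last set gives the promoters, 250 bases before to 50 bases after the start, of the member with the largest difference in each direction. Capitals in E330017L17Rik (chr4:129905976-129906275, plus strand) mark AAGGTCA, letters that the adrenal nuclear receptor NR5A1 is known to bind, found on the plus strand 41 bases before the start. AAGGTCA, searched on both strands, occurred in 4.72% of all promoters of this length and in 6.04% of 149 promoters of members. It was found in 2 of 27 promoters of members called toward the adrenal medulla and in 0 of 12 of the other direction. C530044C16Rik (chr6:50775865-50776164, plus strand) held none of AAGGTCA, TGACGTCA or ACGTG. TGACGTCA, the letters of a cyclic AMP response element, occurred in 1.79% of all promoters and in 3.36% of those of members. ACGTG, the core of the hypoxia response element, occurred in 19.6% and 30.2%. By direction, ACGTG was in 1 of 12 promoters of members called toward the carotid body and in 8 of 27 toward the adrenal medulla. TGACGTCA was in 0 of 12 and 2 of 27.
E330017L17Rik: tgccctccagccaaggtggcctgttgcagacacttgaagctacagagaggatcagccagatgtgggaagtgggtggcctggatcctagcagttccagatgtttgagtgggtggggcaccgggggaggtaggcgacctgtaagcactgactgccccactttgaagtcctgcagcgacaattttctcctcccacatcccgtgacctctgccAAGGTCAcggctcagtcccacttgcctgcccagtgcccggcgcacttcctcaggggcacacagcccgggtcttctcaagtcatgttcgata
C530044C16Rik: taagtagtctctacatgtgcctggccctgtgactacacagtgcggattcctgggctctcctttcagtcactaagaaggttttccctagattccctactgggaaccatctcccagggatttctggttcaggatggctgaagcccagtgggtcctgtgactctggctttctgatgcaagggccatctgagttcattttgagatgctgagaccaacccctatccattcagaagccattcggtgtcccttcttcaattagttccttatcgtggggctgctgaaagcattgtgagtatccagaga

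By limma on log2(RPKM + 1), at an adjusted p under 0.05, 19 members had higher levels in the carotid body, 38 had lower levels there and 202 were not called. Differences are given throughout as carotid body minus adrenal medulla on this log2 scale, which understates the change of low transcripts, with the standard error (SE). Over all 13357 tested genes, 14.2% were called higher in the carotid body and 7.73% lower. The members stood at 7.34% and 14.7%, with a median difference of −0.02 against 0.02 for all genes. Coding entries at the same level threshold (8609) were called at 12.8% and 7.17%. Part of these calls follows from the threshold, since 17 members reached 5 RPKM in all carotid body pools and no adrenal medulla pool, 11 of them called, and 16 did so the other way round, 13 of them called. Among the 149 members at 5 RPKM or more in all 6 libraries, 6 were called toward the carotid body (4.03%) and 14 toward the adrenal medulla (9.4%). The shares for 6226 coding entries at that level were 7.23% and 5.25%.

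The members were sorted by symbol, RefSeq type and position into 74 pseudogenes, 66 other long RNAs, 45 opposite-strand transcripts, 21 snoRNA hosts, 17 genes now listed as protein coding, 15 small structured RNAs, 12 miRNA hairpins, 5 long regulators and 4 miRNA hosts. Pseudogenes were the largest class and the one with the fewest calls for its size, 4 toward the carotid body and 3 toward the adrenal medulla. The other long RNAs split 5 and 14, and the opposite-strand transcripts 6 and 4. All 4 called snoRNA hosts and all 4 called small structured RNAs were higher in the adrenal medulla. The 4 small RNAs were near-identical genes of the U3 snoRNA, whose reads cannot be assigned to 1 copy with certainty. No snoRNA host or small structured RNA was called higher in the carotid body by limma. In that direction 2 hosts and 0 small RNAs had an unadjusted p under 0.05 in limma, and limma voom on recovered reads called 0 of either class. Over all members, 7.34% were called toward the carotid body and 14.7% toward the adrenal medulla. The shares over all tested genes were 14.2% and 7.73%.

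**Figure D1:**
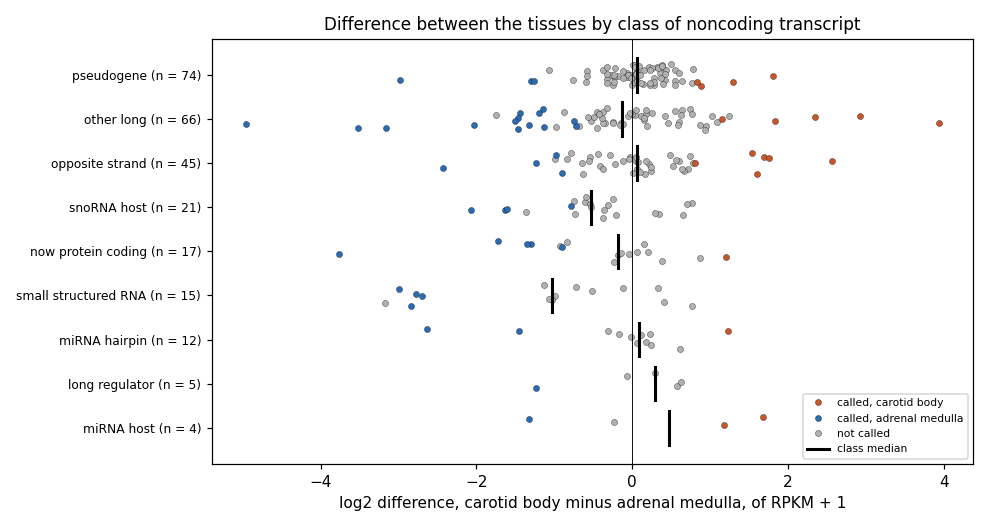
Each point is 1 noncoding transcript, placed by its log2 difference of RPKM + 1 (carotid body minus adrenal medulla, horizontal axis) within its class (vertical axis, points spread for visibility); colour marks the call by limma and the black bar the class median. The median of small structured RNAs lay at −1.04 and that of snoRNA hosts at −0.54, with the other classes between −0.18 and 0.47.

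Of the 4 largest called differences toward the adrenal medulla, 3 belonged to long RNAs, and the second largest to A730046J19Rik, which is described with the entries now listed as protein coding. Values are listed for pools 1, 2 and 3 of the carotid body and then of the adrenal medulla. E330017L17Rik had 0.581, 0.0908 and 0.232 RPKM in the carotid body and 43.9, 20.3 and 64.5 RPKM in the adrenal medulla. The carotid body pools held 11 of its reads in all and the adrenal medulla pools 1612, with no overlap between tissues, and the difference was −4.95 (SE 0.39, adjusted p = 6.09e-05, limma). Mira, a transcript from the Hoxa cluster beside Hoxa7, had 0.345, 0.283 and 0.241 RPKM against 15.3, 13.9 and 12.5 RPKM (−3.53, SE 0.19). Its neighbour Hoxa7, a homeobox gene of posterior body regions, differed in the same direction by −2.71 (adjusted p = 2.03e-05, limma). Both transcripts were separated between tissues with narrow spread within them. 1700086L19Rik had 2.79, 3.26 and 2.11 RPKM against 38.6, 35.1 and 24.4 RPKM (−3.16, SE 0.25), and Dbpht2, 1524 bases away, differed by −2.62 (adjusted p = 0.00137, limma). These 3 members were at the threshold only through the adrenal medulla, so some difference between tissues followed from how they were chosen.

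Further members higher in the adrenal medulla lay inside or beside other genes, which did not all differ the same way. Mir1906-1, a hairpin entry inside the imprinted long RNA Meg3 on the same strand, had 0.862, 0 and 1.61 RPKM in the carotid body and 8.37, 11.4 and 9.12 RPKM in the adrenal medulla (−2.64, SE 0.34). It rested on 3 and 34 reads, and Meg3 itself had 5.96 to 11.9 RPKM and 53.4 to 61.9 RPKM. 2900060B14Rik, within Clasp1 on the opposite strand, had 1.42 ± 1.03 RPKM in the carotid body and 11.8 ± 5.26 RPKM in the adrenal medulla (SD, n = 3; −2.43, called), while Clasp1, a microtubule-binding protein gene, was not called (0.31). LOC100503676, now named Gm38426 and overlapping the kinase gene Mast1, had 1.41 to 1.64 RPKM against 7.41 to 13.9 RPKM (−2.03, SE 0.26). Mir1906-1, 2900060B14Rik and Gm38426 were at the threshold only through the adrenal medulla, so some difference followed from how they were chosen. C630043F03Rik lies 255 bases from Tle1, a corepressor gene, and the pair differed by −1.46 and −0.95, both called. Chaserr, deposited as 1810026B05Rik and known to restrain the adjacent chromatin remodeller gene Chd2, had 3.51 ± 0.579 RPKM against 9.9 ± 4 RPKM (SD, n = 3; −1.20). Chd2 was not called (0.28), and the call for Chaserr was lost when any of 4 pools (carotid body 1 and 3, adrenal medulla 1 and 2) was left out (adjusted p 0.0724 to 0.0931, limma).

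**Figure D2:**
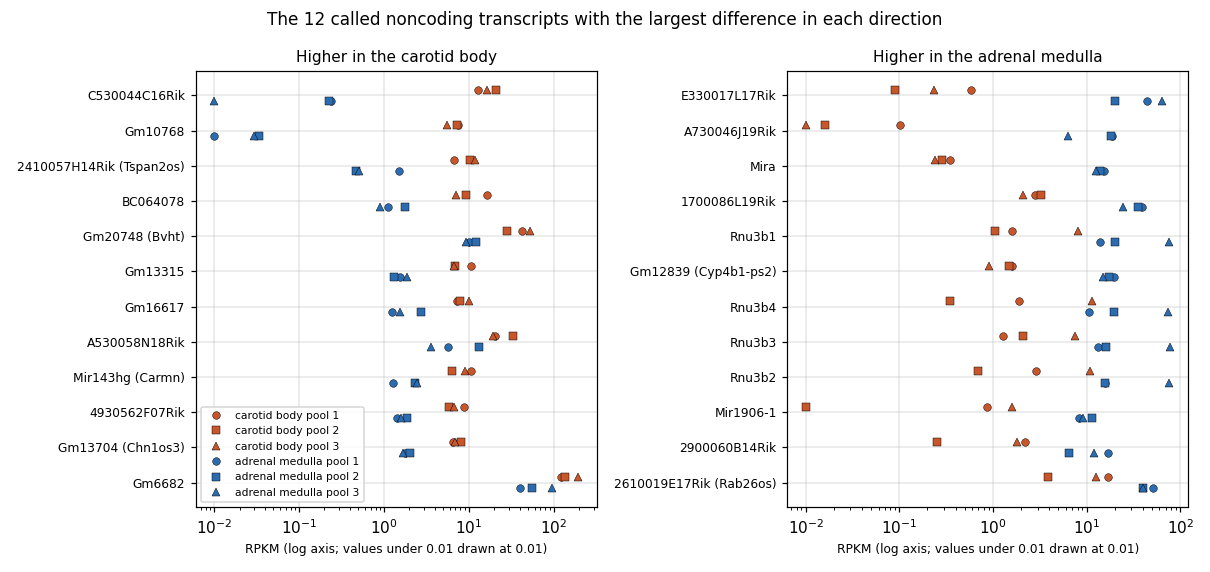
RPKM in each of the 6 libraries (horizontal log axis; colour gives the tissue and marker shape the pool) for the 12 called members with the largest difference in each direction, current RefSeq names in brackets. Among those shown, tissues were separated in every transcript except Rnu3b4. For members that reached 5 RPKM in all pools of 1 tissue and none of the other, this separation followed from how they were chosen. Pool 3 lay highest within both tissues for the 4 U3 genes Rnu3b1 to Rnu3b4.

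In the carotid body the largest difference belonged to C530044C16Rik, a long RNA with no coding gene within 121670 bases. It had 13.1, 21.3 and 16.3 RPKM in the carotid body and 0.24, 0.226 and 0 RPKM in the adrenal medulla, where 8 reads were counted in all (3.93, SE 0.23, adjusted p = 1.77e-05, limma). Gm10768 had 7.59, 7.34 and 5.5 RPKM against 0, 0.0343 and 0.0298 RPKM. The adrenal medulla pools held 0, 1 and 1 of its reads and the carotid body pools 225, 199 and 175. All of its 30-base windows also occur in transcripts of Abcc2, the gene of a membrane export pump. Abcc2 had 10.4, 9.99 and 9.16 RPKM in the carotid body and at most 0.026 RPKM in the adrenal medulla (3.41, adjusted p = 1.10e-05, limma), so reads of the 2 entries cannot be told apart. Both noncoding entries were at the threshold only through the carotid body. After Tspan2os, an opposite-strand transcript described with its class, BC064078 followed with 16.3, 9.36 and 7.09 RPKM against 1.11, 1.77 and 0.909 RPKM (2.34, SE 0.31). BC064078 too was at the threshold only through the carotid body.

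A pair of carotid body transcripts came from the locus of miR-143 and miR-145, miRNAs known for smooth muscle. Carmn, deposited as Mir143hg and the host of both miRNAs, had 10.5, 6.44 and 9.02 RPKM in the carotid body and 1.29, 2.33 and 2.47 RPKM in the adrenal medulla (1.67, SE 0.26, adjusted p = 0.00188, limma). Bvht, deposited as Gm20748 and known from cardiac lineage commitment, lies nearby on the other strand and had 42.6, 28.5 and 52.2 RPKM against 10.1, 12.2 and 9.43 RPKM (1.83, SE 0.26, adjusted p = 0.00131, limma). The lowest carotid body pool exceeded the highest adrenal medulla pool for both. For Carmn this followed from the threshold, which only its carotid body pools reached. Smooth muscle and pericyte markers moved the same way, at 2540 to 3070 RPKM summed in the carotid body and 106 to 109 RPKM in the adrenal medulla, and their part in these 2 differences was not tested.

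Opposite-strand transcripts called toward the carotid body differed in the same direction as the gene they overlap. The 6 such members each overlapped a gene that was also called higher there, as were 14.2% of all tested genes. Tspan2os (2410057H14Rik) had 6.78, 10.5 and 11.9 RPKM against 1.51, 0.475 and 0.515 RPKM (2.56, SE 0.29), and the tetraspanin gene Tspan2 differed by 1.13 (adjusted p = 0.0434, limma). Chn1os3 (Gm13704) had 6.54, 8.05 and 6.98 RPKM against 1.79, 2.02 and 1.68 RPKM (1.53, SE 0.19), and Chn1, a Rac-regulating gene of axon guidance, differed by 1.86. Tspan2os and Chn1os3 were at the threshold only through the carotid body, so some difference followed from how they were chosen. A530058N18Rik overlaps Gjd2, the gene of a neuronal gap junction protein, and had 24.4 ± 7.64 RPKM against 7.52 ± 5.02 RPKM (SD, n = 3; 1.70), with Gjd2 at 2.30. Gm16617 and Arhgef40, a guanine nucleotide exchange factor gene, differed by 1.75 and 0.95. 4930562F07Rik and 4930523C07Rik differed by 1.60 and 1.54, and Gm12992 and Srsf4, a splicing factor gene, by 0.81 and 0.81. The call for A530058N18Rik was lost without carotid body pool 1 or 2 (adjusted p = 0.0518 and 0.0627, limma), and that for Gm12992 when any library other than adrenal medulla pool 3 was left out (0.0538 to 0.0942).

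The 4 opposite-strand members higher in the adrenal medulla overlapped genes that were not called. They were 2900060B14Rik, Lppos (1110054M08Rik, −1.23 with Lpp at 0.30), 2310034G01Rik (−0.98) and Zbtb11os1 (2310061J03Rik, −0.90 with Zbtb11 at −0.45). The calls for Lppos, 2310034G01Rik and Zbtb11os1 were lost without carotid body pool 3 (adjusted p = 0.0524, 0.0814 and 0.0727, limma), and each also without at least 1 other library (up to 0.0532, 0.069 and 0.102). Over the 37 opposite-strand members whose partner gene was tested, Pearson's r between the paired differences was 0.56, and over 203 members and their nearest coding gene it was 0.43. These are descriptions across genes of the same 6 libraries. Whether strand was kept in these libraries is not stated in the sources used here, so for overlapping pairs reads of the 2 strands cannot be told apart. Of 42 called members with a tested nearest gene, 25 shared its sign. In 14 the neighbour was called the same way, and in 2 it was called the opposite way. Over all tested genes, 14.2% were called higher in the carotid body and 7.73% lower.

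Of 21 snoRNA hosts, 4 were called, all toward the adrenal medulla, and carotid body pools kept a common order across the class. Rab26os (2610019E17Rik), which carries Snord60, had 16.8, 3.83 and 12.6 RPKM in the carotid body and 51.2, 39.7 and 39.8 RPKM in the adrenal medulla (−2.07, SE 0.44, adjusted p = 0.0102, limma). Snhg20 (2810008D09Rik) had 17.7, 12.1 and 12.5 RPKM against 38.1, 34.5 and 70.9 RPKM (−1.64, SE 0.31). Snhg4 had 7.31, 5.96 and 5.69 RPKM against 29.1, 26.2 and 12.5 RPKM (−1.61, SE 0.32). The tissues did not overlap in these 3 hosts. Snhg15 (Gm11974) was called at −0.79 (SE 0.23, adjusted p = 0.0392, limma), a call that was lost whichever pool was left out (adjusted p from 0.0597 to 0.136). Rab26, which encodes a vesicle GTPase and lies 310 bases from Rab26os, differed the same way by −0.94 (adjusted p = 0.00851, limma).

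The remaining 17 hosts were not called. Gas5, a growth-arrest transcript that carries many snoRNAs, had 67.1, 30 and 44.6 RPKM in the carotid body and 95.6, 71.4 and 46.4 RPKM in the adrenal medulla (−0.60, adjusted p = 0.308, limma). Snhg1 had 63.4, 23.6 and 29.5 RPKM against 94, 50 and 30.1 RPKM (−0.55), and Snhg8 had 152, 26.3 and 82.6 RPKM against 38.5, 36.9 and 59.1 RPKM (0.65). The tissues overlapped in all 3. Snhg3, Snhg6, Epb41l4aos (2410004N09Rik), Snhg10, Snhg7, Snhg5 and Snhg12 lay between −0.75 and −0.25, and Snhg14 (C230091D08Rik) at 0.29. Snhg6 (−0.73), Snhg9 (−1.37) and Snhg18 (0610007N19Rik, 0.77) passed the threshold with pool number as a block (adjusted p = 0.029, 0.02 and 0.0273, limma). With carotid body pool 2 left out, Snhg18 stood at 0.98 (adjusted p = 0.0396, limma) and Snhg8 at 1.34 (0.0354), both called toward the carotid body. Both were also called with adrenal medulla pool 3 left out as well (0.95 and 1.55, adjusted p = 0.0335 and 0.0162). Pool 1 was the highest of the carotid body pools in 19 of 21 hosts and pool 2 the lowest in 19 of 21. Among 8609 coding entries the order was otherwise, with pool 1 highest in 23.3% and pool 2 lowest in 21.1%. Hosts were not alone in this order, since the shares over all members were 50.2% and 45.6%. They were 58.3% and 66.7% in miRNA hairpins, 55.6% and 44.4% in opposite-strand transcripts and 59.1% and 36.4% in other long RNAs. Pseudogenes stood at 36.5% and 32.4%, and small structured RNAs at 13.3% and 86.7%.

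**Figure D3:**
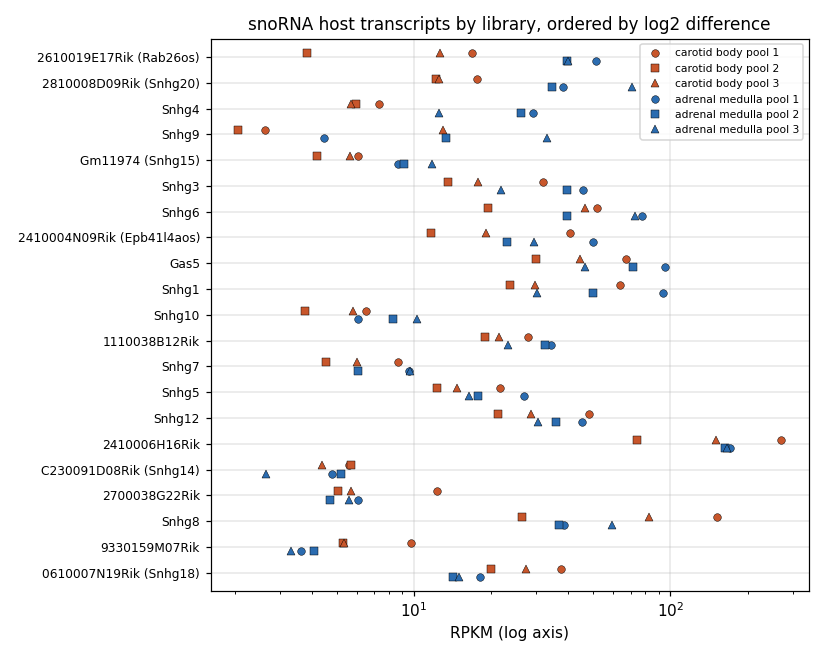
RPKM in each library (horizontal log axis) for the 21 snoRNA hosts, ordered from the largest difference toward the adrenal medulla at the top; colour gives the tissue and marker shape the pool. Orange squares, carotid body pool 2, are the lowest carotid body value in 19 of 21 hosts.

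Genes of proteins that work with these RNAs were not called at the RNA level, and protein was not measured. Of 16 tested genes of snoRNA particle proteins 0 were called in either direction by limma, with 1 at an unadjusted p under 0.05 and 0 called by voom. Their median difference was −0.22. Limma called 14.2% of all tested genes higher in the carotid body and 7.73% lower. None of 78 cytosolic ribosomal protein genes (median 0.16) and none of 11 translation factor genes with oligopyrimidine starts (median 0.20) was called by limma or voom, or had an unadjusted p under 0.05. The 13 tested genes of nonsense-mediated decay, the pathway that degrades many host transcripts after splicing, gave the same counts with a median of 0.15. With adrenal medulla pool 3 and carotid body pool 2 removed together, 11 ribosomal protein genes and 2 decay genes were called. Leaving out adrenal medulla pool 3 alone gave 2 decay genes and 1 gene of a snoRNA particle protein.

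The small structured RNAs kept a common order of pools, and 4 of 15 were called. Rnu3b1, 1 of 4 near-identical genes of the U3 snoRNA that is required for processing of 18S ribosomal RNA, had 1.6, 1.05 and 8.07 RPKM in the carotid body and 13.8, 20.2 and 76.1 RPKM in the adrenal medulla (−2.99, SE 0.70, adjusted p = 0.0156, limma). Rnu3b2, Rnu3b3 and Rnu3b4 were called at −2.70, −2.78 and −2.84, and reads of these copies cannot be assigned to 1 of them with certainty. Pool 3 was the highest of its tissue in each of the 4, and the tissues overlapped in Rnu3b4 alone, where carotid body pool 3 (11.5 RPKM) exceeded adrenal medulla pool 1 (10.6 RPKM). Their calls were lost without carotid body pool 1 (adjusted p = 0.0734, 0.121, 0.092 and 0.155 for Rnu3b1 to Rnu3b4, limma) or pool 2 (0.0524, 0.105, 0.0622 and 0.134). Those of Rnu3b2 and Rnu3b4 were also lost without adrenal medulla pool 3 (0.0637 and 0.0899) and by voom (0.0563 and 0.0652), and that of Rnu3b4 without adrenal medulla pool 2 (0.0851).

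Other small RNAs showed the same order of pools without a call. Snord13, the U13 snoRNA, had 4.22, 0 and 28.8 RPKM against 12.9, 37.2 and 213 RPKM (−3.17, SE 1.27, adjusted p = 0.119, or 0.0118 with pool number as a block, limma). Rn7sk, the 7SK RNA that holds the elongation factor P-TEFb inactive, had 11.8, 3.41 and 14.5 RPKM against 4.93, 17.3 and 84.6 RPKM (−1.14). Its difference was −0.12 without adrenal medulla pool 3, −2.05 without adrenal medulla pool 1 and −0.58 without carotid body pool 2, uncalled in each. Rn4.5s, a rodent RNA related to Alu-type repeats, had 109, 30.6 and 323 RPKM against 82.1, 127 and 908 RPKM (−1.04). Pool 3 was the highest in 13 of 15 small RNAs in the carotid body and likewise in 13 of 15 in the adrenal medulla, while carotid body pool 2 and adrenal medulla pool 1 were each the lowest of their tissue in 13. Among coding entries pool 3 was highest in 31% and 35.3%. Bc1, a neuronal RNA that represses translation, departed from this order in the adrenal medulla with 96.2, 227 and 46.2 RPKM. Rnu6, the U6 spliceosomal RNA, was the one small RNA with all carotid body pools above the adrenal medulla pools (28.2 to 35.4 RPKM against 10.4 to 25.5 RPKM), and was not called (0.76, adjusted p = 0.155, limma). The class took 0.078% to 0.181% of reads in the carotid body and 0.104% to 0.266% in the adrenal medulla, most of it from Rn18s, the 18S ribosomal RNA.

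**Figure D4:**
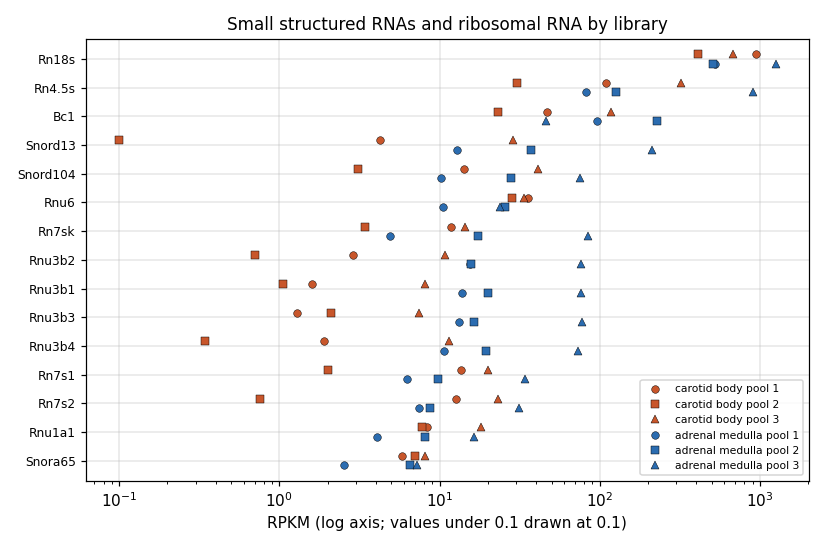
RPKM in each library (horizontal log axis; 1 value of 0 drawn at 0.1) for the 15 small structured RNAs and 18S ribosomal RNA, ordered by mean level. Triangles mark pool 3, which is the highest of its tissue in 13 of 15 transcripts in either tissue.

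Among the 4 miRNA hosts, Mir22hg was called toward the adrenal medulla, and Dleu2 and Carmn toward the carotid body. Mir22hg, which carries the miR-22 sequence printed above, had 6.63, 7.47 and 4.87 RPKM against 22.1, 19 and 11.9 RPKM (−1.32, SE 0.28, adjusted p = 0.00948, limma). Dleu2, from which miR-15a and miR-16 with their shared seed are cut, had 7.63, 11.7 and 8.91 RPKM against 4.01, 3.57 and 3.13 RPKM (1.17, SE 0.23, adjusted p = 0.00596, limma). The tissues did not overlap in either host. Dleu2 was at the threshold only through the carotid body, so its separation followed from how members were chosen. Trim13, which overlaps Dleu2 on the other strand, did not follow it (0.02, adjusted p = 0.976). Levels of mature miRNAs were not measured. Of 12 tested genes of miRNA processing, 1 was called, Xpo5, the exporter of precursor hairpins, which had 1.28, 1.69 and 1.63 RPKM against 5.88, 5.59 and 4.54 RPKM (−1.32, SE 0.19, adjusted p = 0.00138, limma).

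Hairpin entries mostly shared sequence with mRNAs. In 7 of 12, at least 50% of the 30-base windows occurred in a protein-coding transcript, and 2 entries, Mir3064 and Mir1906-1, shared none. Mir3064, in the helicase gene Ddx5, had 22.6, 12.4 and 16.3 RPKM against 56.7, 34.5 and 54.5 RPKM (−1.46, SE 0.29, adjusted p = 0.00729, limma). Ddx5 was not called (−0.13), and the tissues did not overlap for the hairpin. Mir682, which contains the Rpl37a sequence shown above, had the highest mean of any member, with 6032, 509 and 1256 RPKM in the carotid body and 1363, 911 and 1934 RPKM in the adrenal medulla. The first carotid body pool alone stood apart, and the difference was 0.23 (adjusted p = 0.891, limma). Mir686, contained in Psmb5, had 47 to 53.1 RPKM and 44.4 to 82 RPKM and was not called. Mir3470b, related to a repeat family, was called higher in the carotid body (28.4, 17.9 and 26.5 RPKM against 5.91, 12.8 and 11.6 RPKM; 1.23, SE 0.32), but not by voom. That call was lost too on removal of the first or the third carotid body pool (adjusted p = 0.0961 and 0.0864, limma) or of adrenal medulla pool 1 (0.0565).

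Of the 5 long regulators, Neat1 was called. Neat1, the scaffold of paraspeckles, had 16.5, 10.7 and 12.4 RPKM in the carotid body and 24.0, 33.2 and 41.2 RPKM in the adrenal medulla (−1.24, SE 0.27, adjusted p = 0.0106, limma). The tissues did not overlap, and without pool 3 of both tissues the adjusted p was 0.0507. None of 14 tested genes of paraspeckle proteins was called by limma or voom or had an unadjusted p under 0.05 (median −0.15). Without adrenal medulla pool 3, 1 of them was called, and 2 with carotid body pool 2 left out as well. Malat1, which marks nuclear speckles, varied more within than between tissues, with 168, 15.2 and 32.9 RPKM against 70.5, 46.6 and 6.45 RPKM (0.62, SE 0.99). Norad (2900097C17Rik), known to bind Pumilio proteins, had 94.2 to 168 RPKM and 76.2 to 127 RPKM and was the most abundant of the class (0.28). Tug1 had 9.82 to 17.1 RPKM and 6.48 to 19 RPKM (−0.06), and was called toward the adrenal medulla where carotid body pool 2 and adrenal medulla pool 3 were both left out (−0.73, adjusted p = 0.0419, limma). Oip5os1 (1700020I14Rik), known to direct decay of miR-7, had 8.5 to 17.5 RPKM against 6.45 to 7.81 RPKM without overlap, and was not called (0.58, adjusted p = 0.207, limma).

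Of the 10 most abundant members, 8 were pseudogenes of housekeeping mRNAs, and the others were Mir682 and Rn18s. Ubb-ps (Gm1821), a ubiquitin pseudogene, had 829.8, 1187 and 1487 RPKM in the carotid body and 782, 1153 and 1442 RPKM in the adrenal medulla (0.06). Gm15772, which shares 85.3% of its 30-base windows with coding transcripts, foremost Rpl26, had 861 to 1377 RPKM and 907 to 1045 RPKM (0.09). Oaz1-ps, Gm12191 (Rpl30), Rplp2-ps1, Gm6654 (Rps26), Atp6v0c-ps2 and Cox7c-ps1 (Gm10012) followed, all uncalled, with differences from −0.59 to 0.55. With adrenal medulla pool 3 and carotid body pool 2 removed together, Rplp2-ps1 was called at 1.20, against 0.55 (adjusted p = 0.00812, limma). Of 67 pseudogenes with sequence, 28 shared at least 50% of their windows with coding transcripts. The median share was 37% and no pseudogene shared none.

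Differences of pseudogenes mostly lay close to those of the mRNA they copy. Over 33 pairs that shared at least 30% of windows and had both entries tested, 31 differed from each other by at most 0.5 in log2 difference, and Pearson's r was 0.68. All 4 called pseudogenes among them had a parent called the same way. Of all tested genes, 14.2% were called higher in the carotid body and 7.73% lower. Cyp4b1-ps2 (Gm12839) had 1.59, 1.47 and 0.911 RPKM against 19.4, 17.4 and 14.9 RPKM (−2.98, SE 0.22), and the cytochrome P450 gene Cyp4b1 differed by −2.53. Cyp4b1-ps2 was at the threshold only through the adrenal medulla, so some difference followed from how it was chosen. Gm6644 and Akr1b3, the aldose reductase gene, both differed by −1.26. Gm6682 and the tubulin gene Tuba1b differed by 1.29 and 1.26, and Gm7367 and Ubald2 by 0.84 and 0.86. The calls for Gm6682 and Gm7367 were lost when any library other than adrenal medulla pool 3 was left out (adjusted p up to 0.102 and 0.096, limma). Reads of a pseudogene and its parent cannot be told apart where they share sequence. In 5 pairs the pseudogene had the higher mean level, for example Rps15a-ps4 with 184 RPKM against 67.4 and 85.6 RPKM for Rps15a in the 2 tissues. Gm1943 and Wdr70 were the pair furthest from equal differences (−0.24 and 3.47). Gm13315, within the calcium channel subunit gene Cacnb2, shared 11.4% of windows with coding transcripts and went against that gene, at 1.80 (10.5, 7 and 6.71 RPKM against 1.54, 1.31 and 1.87 RPKM) and −1.51, both called. Gm13315 was at the threshold only through the carotid body, so some difference followed from how it was chosen.

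**Figure D5:**
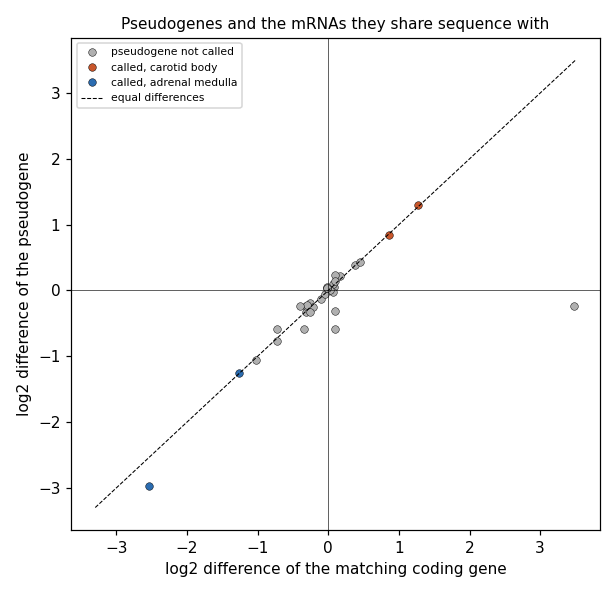
Log2 difference of RPKM + 1 (carotid body minus adrenal medulla) of 33 pseudogenes (vertical axis) against that of the coding gene with which each shares most sequence (horizontal axis); colour marks the call for the pseudogene and the dashed line equal differences. Of the 33 points 31 lie within 0.5 of the line, and the point far to the right is Gm1943.

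Of 17 members now listed as protein coding, 5 were higher in the adrenal medulla and 1 in the carotid body. The shares called in these directions were 14.7% and 7.34% over all members, and 7.73% and 14.2% over all tested genes. A730046J19Rik, on the X chromosome, had 0.102, 0.016 and 0 RPKM in the carotid body and 18.5, 18.4 and 6.33 RPKM in the adrenal medulla (−3.76, SE 0.37, adjusted p = 0.000165, limma). The carotid body pools held 8 of its reads and the adrenal medulla pools 2898. A730046J19Rik was at the threshold only through the adrenal medulla, so some difference followed from how it was chosen. BC029722, which overlaps the metalloproteinase gene Mmp24 on the other strand, had 21.6, 21.5 and 29.9 RPKM against 61.1, 87.1 and 104 RPKM (−1.73, SE 0.26), with Mmp24 at −1.32. Smim4, Gm2115 and Mtln (1500011K16Rik) were called at −1.35, −1.30 and −0.91. Mtln, a small protein of mitochondria, passed narrowly (adjusted p = 0.0495) and was lost in 11 of the 14 other settings. Inafm2 (5430417L22Rik) was higher in the carotid body, with 29.4, 49.7 and 32.0 RPKM against 18.7, 18.6 and 9.9 RPKM (1.20, SE 0.31, adjusted p = 0.0252, limma). The calls for Inafm2 and Smim4 were lost without carotid body pool 2 (0.0845 and 0.0501, limma) or pool 3 (0.0563 and 0.0501).

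A further pattern across pools concerned 5830416I19Rik, a long RNA of no assigned function. It had 16.4, 32.4 and 0.83 RPKM in the carotid body and 95.0, 59.0 and 0.416 RPKM in the adrenal medulla, so that pool 3 of both tissues was far below the others. It was 1 of 259 members at least 4-fold lower in pool 3 of both tissues on the RPKM + 1 scale, against 0 of 8609 coding entries, and Snord13 was the 1 member at least 4-fold higher in both. 5031426D15Rik came close, with 10.9, 16 and 3.16 RPKM against 28.7, 26.5 and 0.727 RPKM. Neither long RNA differed between the tissues by limma (adjusted p = 0.749 and 0.911). The 2 were picked after their values were seen.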

How the data were processed

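The authors deposited RPKM values, which are reads scaled to the listed mRNA length and to the reads of each library. As seen from the values, the latter were the reads summed over all listed entries. Per the submitters' processing notes, Bowtie 0.9.8 and the mouse build mm9 were used; per the labels' protocols, total RNA was amplified before library construction. Whole reads, recovered from RPKM and length, came out whole within 0.01 for 106276 of 106276 values above 0. Amplified reads carry no molecular identifiers, so counts cover counting error only. Entries without a length hold raw counts in the deposited table, as seen from the values, and were kept out of the tests.

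Both tissues were compared with limma 3.58.1 (R 4.3.3) on log2(RPKM + 1), with a variance trend and no block, over 13357 genes with at least 1 RPKM in at least 3 libraries, and p-values were Benjamini-Hochberg adjusted over all of them (two-sided, threshold 0.05). They measure only the spread between pools. Members were matched to RefSeq (GRCm38.p6) by accession (235), symbol (14) or synonym (8), 2 not at all. Promoter sequences were found for 133. Strand and the transcripts for the search of shared 30-base windows came from GENCODE M21. Whether the pool numbers pair the libraries was not known, and they entered only the fit with a block. Deviations from the tissue means correlated within each number (r = 0.26, 0.13 and 0.47 over all genes). Carotid body pool 2, however, correlated more with adrenal medulla pool 1 (r = 0.29) than with its own number. In adrenal medulla pool 3 alone, reads of the Y-linked genes Eif2s3y and Kdm5d were absent. Y-linked Ddx3y stood there at 0.0786 RPKM, against 11.6 to 33.7 RPKM in the other libraries. The block is given where it changed a call.

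Members and gene lists were chosen with earlier results of these data known. Named were the 10 most abundant members, the 12 called members with the largest difference in each direction, a list of known long RNAs and hosts whatever their values, and the 3 entries on each side of the threshold. Further called members, neighbours and those that spell out a small count were named after their values were seen. Alternatives were a pseudocount of 0.1 RPKM, no filter, median-ratio and quantile scaling, voom on recovered reads, the block and leaving out libraries. The procedure was tested on simulated data. Python 3.11.15, pandas 2.3.3, numpy 2.4.6 and matplotlib 3.10.9 were used.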

Additional observations from a re-analysis of the deposited data

Results flagged for a closer look

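Of the 5 noncoding entries without a listed mRNA length, whose values are raw reads and which entered no comparison, 3 had more reads than the 3 that a count of 0 allows. 2810442I21Rik had 22 reads in all carotid body pools together and 10 in those of the adrenal medulla. Gm872 had 18 and 25 reads, and E230029C05Rik had 75 and 29 reads, 41 of the 75 in carotid body pool 1. These differences were not tested.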

How the results depend on the processing

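Across the 14 alternatives, 32 of the 57 called members (11 higher in the carotid body, 21 in the adrenal medulla) kept their call, and no called member changed direction. Leaving out 1 library gave 12 to 24 members higher in the carotid body (12 without carotid body pool 3) and 25 to 37 higher in the adrenal medulla (25 without carotid body pool 2). With 1 pool of each tissue removed, pool 2 of the carotid body and pool 3 of the adrenal medulla, the counts were 29 and 45, and 2067 of all genes were higher in the adrenal medulla, against 1033. With pool number as a replicate block 28 and 44 members were called, 57 of 57 kept and 15 gained. The level threshold set the number of members at 156 (10 RPKM), 659 (1 RPKM) or 149 (5 RPKM in all 6 libraries). Median-ratio and quantile scaling moved the median of all genes from 0.02 to −0.05 and −0.06. The cause of each shift was not tested.

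Directions turned for some uncalled members, among them Malat1 (0.62) and Rn7sk (−1.14). Over the libraries left out in turn, the differences ranged as follows, each across 0: Atp6v0c-ps2 −0.28 to 0.35, Gm12191 −0.38 to 0.37, Gm15772 −0.11 to 0.23, Gm1821 −0.18 to 0.28, Gm6654 −0.29 to 0.49, Malat1 −0.37 to 1.37, Mir682 −0.74 to 1.04, Rn18s −0.40 to 0.31, Snhg12 −0.56 to 0.01 and Tug1 −0.50 to 0.21. Median-ratio scaling gave Atp6v0c-ps2 −0.07, Gm1821 −0.02 and Gm6654 −0.05. With that pair removed, C230091D08Rik stood at −0.01, Gm12191 at 0.27, Rn18s at 0.63 and Rn7sk at 0.44. Without pool 3 of both tissues, chosen after seeing the data, Gm15772 stood at −0.06, Malat1 at −0.16 and Rn18s at 0.26. Short members rest on few reads, as the 3 carotid body reads of Mir1906-1 show.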
